A study of Rattus norvegicus with 6 samples.

Results

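The cells described here are monocyte-like cells of the rat pons after infarction. They are the 565 cells, of 19445 cells kept from 3 infarction libraries, that passed a gate on expression. A member held at least 1 UMI (unique molecular identifier, a count of 1 captured RNA molecule) of at least 2 of the 3 genes Fcnb, Vcan and Ccr1 and at least 1 UMI of the myeloid adaptor gene Tyrobp. Per 10000 UMIs it held under 20 of Gpnmb and Fabp5 together, under 40 of C1qa, C1qb and C1qc together and under 200 of S100a8 and S100a9 together. It also held fewer than 3 of the 5 interferon-induced genes Mx1, Ifit2, Ifit3, Cxcl10 and Rsad2, and under 2 UMIs of Ccl17 and Ccl22 together. The 38685 cells kept in the series each reached 500 UMIs and 200 genes, with no more than 20% of UMIs from mitochondrial genes.

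Single cells were profiled by droplet 3′ RNA sequencing from Sprague Dawley rats labelled postnatal day 21, in 3 libraries of rats with pontine infarction, a stroke of the brainstem, and 3 libraries of rats labelled sham. The labels give brain as the tissue and name the pons for the series, and they give neither the time from infarction to sampling nor an allele or drug. Nothing in them says whether a library is 1 animal, so p-values measure spread over libraries. In tests of many genes, both populations came from the same libraries. There the spread is that of their difference from library to library, and it is pooled in part across genes. The 3 infarction libraries held 204, 213 and 148 of the monocyte-like cells, with 2223151, 2181706 and 1492041 UMIs in all. A cell held a median of 9924 UMIs, from 572 to 49535, and a median of 2035 genes.

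Monocytes are blood leukocytes that enter injured brain, where they can become macrophages or antigen-presenting cells. Ficolin B, encoded by Fcnb, is a secreted lectin that recognises sugars on microbes and can start the lectin pathway of complement. Versican, encoded by Vcan, is a large matrix proteoglycan made by classical monocytes, and Ccr1 is a receptor for CC chemokines such as Ccl3 and Ccl5. Gpnmb and Fabp5, which the gate limits, are raised in lipid-handling macrophages, and S100a8 and S100a9 are abundant in neutrophils.

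Fcnb (ENSRNOG00000009342 in the files) gave 960.4, 936 and 1316 CPM (the gene's UMIs per 1000000 UMIs of the pooled cells) in infarction libraries 1, 2 and 3. Vcan (ENSRNOG00000029212) gave 1288, 1008 and 1035 CPM and Ccr1 (ENSRNOG00000006715) 282, 225 and 290.2 CPM. These 3 genes chose the cells, and their levels are a description. The genome build of the files is not given in the sources used here, so the start-site region of Fcnb, shown because cells with and without Fcnb differed in the genes described below, is given from RefSeq on build GRCr8. It spans chr3:31800139-31800438 on the minus strand, from 250 bases before the annotated start to 50 after it. It was searched on both strands for GAGGAA, the core recognised by the myeloid factor PU.1, and for TTGCNNAA, a form of the site of C/EBP factors. The capitals mark its 1 match to TTGCNNAA, which reads on the opposite strand, and GAGGAA was not in this window. The Ccr1 window held 1 GAGGAA and no TTGCNNAA, and the Vcan windows held neither.
Fcnb start-site region: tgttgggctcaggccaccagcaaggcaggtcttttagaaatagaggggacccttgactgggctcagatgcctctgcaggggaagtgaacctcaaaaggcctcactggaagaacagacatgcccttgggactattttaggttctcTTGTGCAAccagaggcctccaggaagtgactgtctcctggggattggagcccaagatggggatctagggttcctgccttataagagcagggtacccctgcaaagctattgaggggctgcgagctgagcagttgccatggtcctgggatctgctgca
TTGCNNAA was found in 10.6% and GAGGAA in 27.6% of 33469 RefSeq windows of this length. A match of letters is a description and shows no binding.

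Free RNA gives some UMIs in every droplet, so the share of cells with a UMI was set beside that of T cells, which should lack these genes. T cells were taken as cells with UMIs of at least 2 of Cd3d, Cd3e and Cd3g and 0 UMIs of Tyrobp. Leaving out T cells with Tyrobp can lower their shares of other myeloid RNA. After thinning each cell to 3000 UMIs, which left 497 of 565 monocyte-like cells and 156 of 171 T cells, Fcnb was detected in 59.0% of monocyte-like cells and 0.641% of T cells. Before thinning the shares were 64.1% and 0.585%, at median depths of 9924 and 5061 UMIs. Vcan was detected in 72.2% against 1.92% and Ccr1 in 49.9% against 0% of the thinned cells. Fcnb, Vcan and Ccr1 chose the monocyte-like cells, so their shares in those cells were set by the rule and are a description. For these rule genes only the low shares in T cells, which were not chosen by them, bear on free RNA. Among genes outside the rule, the gene of lysozyme 2, Lyz2, was detected in 98.8% against 17.3%, and the arginase gene Arg1 in 26.6% against 1.28%. Spp1, at 59.4% against 48.1%, and Apoe, at 38.4% against 35.3%, were nearly as frequent in T cells, so low levels of these genes are not read as expression.

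The label was checked against marker lists. Of 21 classical monocyte markers, 17 were measured and each reached at least 10 CPM. Their summed level was 33327, 33879 and 35752 CPM in monocyte-like cells and 20796, 21597 and 18772 CPM in the macrophages described further on, of which Lyz2 alone gave 19631, 20041 and 20280 CPM and 8197, 8679.8 and 6614 CPM. All 17 also reached 10 CPM in these macrophages, and 13 did in neutrophils, in dendritic-like cells and in microglia. Against the macrophages 3 of the 17 were called higher, where 4.97% of all genes tested were. The 7 measured non-classical monocyte markers summed to 239.8, 203 and 194 CPM in monocyte-like cells and 97.0, 107 and 119.6 CPM in macrophages, and 3 of the 6 tested were called higher. The sum was higher in dendritic-like cells, at 402.6, 257 and 267 CPM, and in microglia, at 1176, 1121.5 and 1215.6 CPM. This second list therefore does not set the monocyte-like cells apart. Ccr2 and Itgam, which also define monocytes, were not analysed here. The 8 microglial markers summed to 35.3 to 50.8 CPM, and the dendritic markers Ccr7, Fscn1 and Cd209a had 0 UMIs. The 4 measured markers of border macrophages were not low, and summed to 144.84, 212.68 and 231.9 CPM in monocyte-like cells. These sums exceeded those of every library of microglia, dendritic-like cells and neutrophils. In each library they lay below the sum in macrophages, at 213.03, 320.25 and 460.63 CPM. Markers of T, NK, B and mast cells were low, with Klrd1, Gzma, Prf1, Ms4a1, Cpa3, Ms4a2 and Tpsab1 at 0. Of the platelet markers Pf4 was present while Gp9 and Itga2b were at 0. Markers of oligodendrocytes summed to 323 CPM in infarction library 3, against 26.1 and 43.1 CPM in the other libraries.

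One group of cells went against the label. Of the 565 cells, 83 held UMIs of at least 2 of 9 neutrophil genes (the list without S100a8 and S100a9), 47 in infarction library 1, 20 in library 2 and 16 in library 3. They were shallow, with a median of 2762 UMIs and 4.25% mitochondrial UMIs, against 10487 UMIs and 8.58% in the other 482 cells. Fcnb was absent from 72 of the 83. The full neutrophil list of 11 genes, with S100a8 and S100a9, summed to 667, 275 and 310 CPM over all monocyte-like cells, against 98358, 95426 and 86466 CPM in neutrophils. Both populations were cut on S100a8 and S100a9, and the neutrophils also on Cxcr2, Csf3r, Mmp8 and Il1r2 of this list. The gap was therefore set in part by the gates and does not measure the neutrophil content of the monocyte-like cells. The fits below were therefore repeated without these 83 cells, and the counts so found are given for the class II and cell cycle lists against macrophages.

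Few sham cells passed the same gate. It held 3.41%, 2.88% and 2.44% of kept cells in the infarction libraries, with exact 95% binomial intervals of 2.97% to 3.91%, 2.51% to 3.28% and 2.07% to 2.86%. In sham libraries 1, 2 and 3 it held 4, 11 and 3 cells, 0.0664%, 0.170% and 0.0446% of kept cells. The highest upper bound among the sham libraries was 0.303%. The mean was 2.91% ± 0.488 in infarction libraries and 0.0935% ± 0.0668 in sham libraries (SD, n = 3 each), with no overlap. An exact two-sided permutation test gave p = 0.1, the smallest that 20 assignments of 6 libraries allow. Intervals cover counting error only.

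With 18 sham cells in all, expression in them was described and not tested. All 18 held Fcnb, as did 362 of the 565 infarction cells. The level of this rule gene, 960.4, 936 and 1316 CPM in infarction cells against 2493, 2482 and 1914 CPM in sham cells, is a description. Lyz2 was 19631, 20041 and 20280 CPM in infarction cells against 35041, 27354 and 28016 CPM in sham cells. Cd74, the chaperone of MHC class II, was 3308, 5332 and 3360.5 CPM against 11416, 7838 and 13272 CPM. Lyz2 and Cd74 were lower in every infarction library than in any sham library. The ferritin heavy chain gene Fth1, which stores iron, was 36848, 29530 and 41414 CPM in infarction cells against 5297, 5737 and 6158 CPM in sham cells. The protease inhibitor gene Slpi was 5968, 1944 and 3836 CPM against 198, 19.5 and 24.5 CPM, and the osteopontin gene Spp1 1799, 1085 and 1137 CPM against 0, 9.77 and 24.5 CPM. Both were higher in every infarction library, although Spp1 is one of the genes frequent in T cells. Arg1, at 309, 244 and 227 CPM in infarction cells, had 0 UMIs in all 3 sham libraries. The same held for Vegfa, a vascular growth factor, at 283, 235 and 242 CPM, and for the chemokines Ccl7 and Cxcl3, at 897, 507 and 605 CPM and 3038, 1426 and 987 CPM. A floor of 3 UMIs per sham library was 85.0, 29.3 and 73.6 CPM. In the 362 infarction cells with Fcnb, Lyz2 was 23242, 23038 and 25304 CPM, Cd74 4401, 6292 and 3485 CPM, Fth1 25222, 17560 and 22751 CPM and Slpi 2628, 1416 and 2314 CPM, on the same side of every sham library as above. Arg1 was 151, 113 and 125 CPM in them, above each floor, while Cxcl3, at 751, 55.8 and 20.3 CPM, was above each floor in library 1 alone. S100a4 and S100a6, calcium-binding proteins of motile leukocytes, overlapped or lay close, with S100a4 at 3398, 4062 and 3966 CPM against 3399, 3391 and 2944 CPM and S100a6 at 3380.3, 3176 and 4205 CPM against 3569, 4173 and 4956 CPM.

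**Figure D1:**
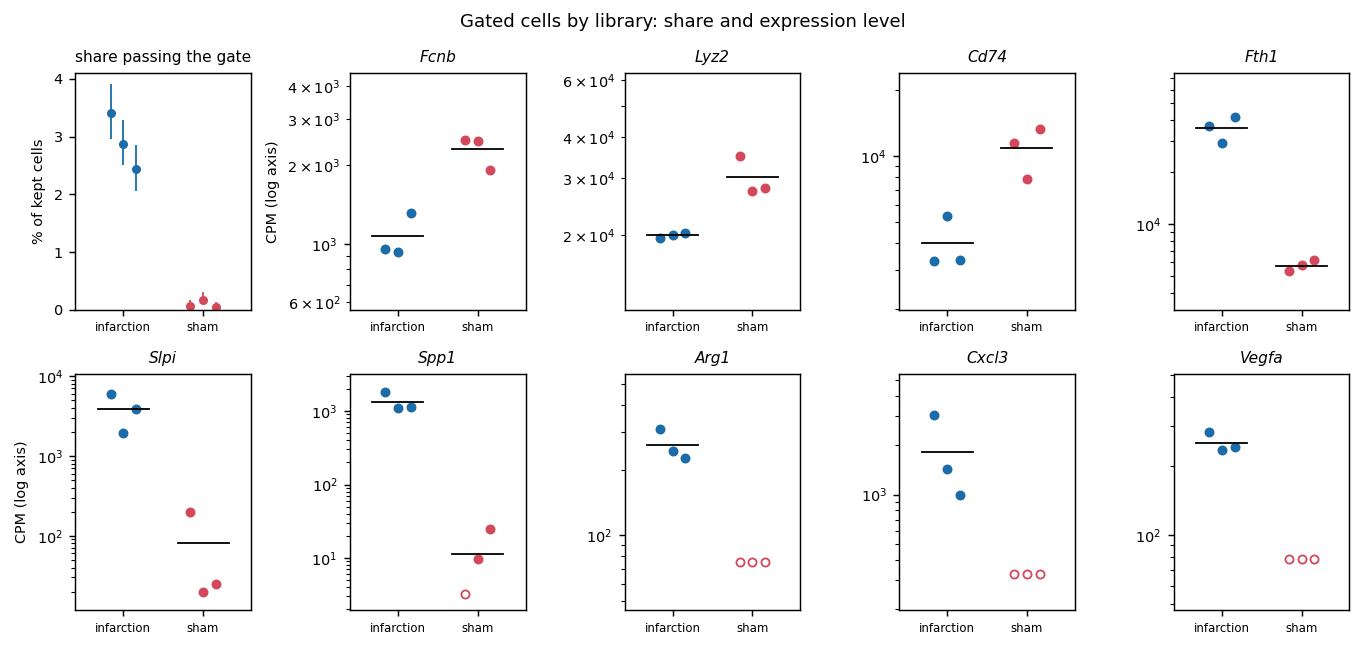
Share of kept cells passing the gate (bars are exact 95% binomial intervals) and expression level of 9 genes in the gated cells, 1 point per library, infarction left and sham right; black lines are means, level axes are logarithmic, and open circles mark 0 UMIs. Fth1, Slpi, Spp1, Arg1, Cxcl3 and Vegfa were higher in all 3 infarction libraries, and Lyz2 and Cd74 were lower; Fcnb is a rule gene.

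The genes with the highest levels, ranked on 3′ UMI counts that need no scaling by gene length, were led by Fth1 and Lyz2. Tmsb4x, Tpt1 and Tmsb10 followed, then the intermediate filament gene Vim (5623 ± 552 CPM, SD, n = 3) and the monocyte-attracting chemokine gene Ccl2 (8378, 4336 and 4013 CPM). Prdx5, Actg1, B2m, Cd74, Slpi, S100a4, S100a6, RT1-Da, Eif1, S100a10, Calm2 and Cebpb were also among the 20 highest. The libraries differed by more than sampling noise, with a chi-square per degree of freedom of 5.07 to 10.4 between pairs. Still, of 2062 genes at 50 CPM or more, the median ratio of the highest to the lowest library was 0.28 on the log2(CPM + 1) scale, and 59 genes, 2.86%, exceeded 1. Among these, Il1r2, a decoy receptor of interleukin 1 that neutrophils carry, was 254, 40.3 and 97.9 CPM and Ccl3 2849, 803 and 989 CPM, both highest in library 1, which also held most cells with neutrophil genes. Mbp, a myelin gene, was 16.6, 28.9 and 168 CPM, highest in library 3, where other oligodendrocyte markers were highest too. The part of neutrophil and myelin RNA in these differences was not tested.

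The cells fell into 4 sets by the rule's own markers. All 3 markers were held by 227 cells (40.2%), Vcan and Ccr1 without Fcnb by 203 (35.9%), Fcnb and Ccr1 without Vcan by 69 (12.2%) and Fcnb and Vcan without Ccr1 by 66 (11.7%). Their median depths were 9823, 8594, 12280 and 9277.5 UMIs. A marker without a UMI may have been missed, so the sets are ranges of detection, and since the rule's genes made them, their levels are given without a test. Genes named in the 3 paragraphs on these sets were chosen after their values were seen.

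The 69 cells with Fcnb and Ccr1 but no Vcan UMI, 19, 36 and 14 per library, carried the most MHC class II RNA. The 8 genes of the class II list, which encode the proteins that show peptides to helper T cells and their regulators, summed to 35420, 33340 and 26260 CPM in these cells. In cells with Fcnb and Vcan the sum was 12570, 16760 and 13430 CPM, in cells with Vcan and Ccr1 4912, 10380 and 9703 CPM and in cells with all 3 markers 6998, 9115 and 4090 CPM. The ranges of the first set and of the rest did not overlap. RT1-Da, a class II alpha chain, was 9545, 9380 and 7120.3 CPM in the first set and 2030.4, 2457 and 1050.4 CPM in cells with all 3 markers. Clec10a, a lectin of macrophages and dendritic cells, was 527, 856 and 519.7 CPM against 129.7, 209 and 84.7 CPM, and the costimulatory gene Cd86 134, 116 and 72.8 CPM against 22.2, 51.2 and 52.2 CPM. The 14 genes of the dendritic list summed to 544, 377 and 374 CPM in the first set, against 215, 181 and 114 CPM in cells with all 3 markers. Cd83 gave 375, 222 and 234 CPM and Flt3, a receptor of dendritic cell precursors, 2.12 to 10.3 CPM in the first set, while Ccr7, Fscn1, Cd209a, Xcr1 and Clec9a had 0 UMIs. Genes of cell division were also highest there, where the 16 measured genes of the cell cycle list summed to 985, 1044 and 1824 CPM, against 394, 313 and 544 CPM in cells with all 3 markers. The sum in cells with Fcnb and Vcan, 1067, 817 and 307 CPM, overlapped with that of the first set. Stmn1, a regulator of microtubules, was 238, 180 and 494 CPM against 19.9, 6.03 and 50.8 CPM. Other genes were lower in the first set. Fibronectin, encoded by Fn1, was 155, 195 and 353 CPM against 1756, 1934 and 1873 CPM, Slpi 44.8, 21.2 and 15.6 CPM against 3354, 2222 and 2960.5 CPM, and Arg1 31.0, 0 and 0 CPM against 212, 124 and 176 CPM.

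Cells with all 3 markers carried the most RNA of classical monocyte genes. The 17 measured genes of that list summed to 44600, 48150 and 47170 CPM in them, against 34010, 31940 and 40960 CPM with Fcnb and Vcan, 24140, 27170 and 17130 CPM with Vcan and Ccr1 and 22470, 25480 and 28330 CPM with Fcnb and Ccr1. The haptoglobin gene Hp was 139, 167 and 152 CPM in cells with all 3 markers, S100a6 4858, 5164 and 5906 CPM and the chemokine receptor gene Cxcr4 866, 673 and 689 CPM, each above every library of the other sets. Mal, a protein of membrane rafts, was 204, 232 and 277 CPM and overlapped only with cells holding Fcnb and Vcan (24.3, 193 and 307 CPM).

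The 203 cells with Vcan and Ccr1 but no Fcnb UMI carried the chemokine and arginase RNA. The 16 chemokine ligands summed to 42090, 23050 and 22110 CPM in them, against 15760, 7385 and 6549 CPM in cells with all 3 markers. Pf4, a chemokine best known from platelets, was 785, 989 and 1965 CPM against 27.7, 28.6 and 26.8 CPM, and Ccl12, a ligand of Ccr2 in rodents, 1292, 1913 and 1165 CPM against 5.54, 91.9 and 4.24 CPM. Cxcl3, which draws neutrophils, was 7242, 4150.4 and 3548 CPM against 1167, 88.9 and 14.1 CPM. Arg1 was 601, 506 and 497 CPM against 212, 124 and 176 CPM and Fth1 58223, 53342 and 90897 CPM against 33677, 22005 and 27622 CPM. None of these 5 genes overlapped between the sets. These cells held 72 of the 83 with neutrophil genes. In the 83, Cxcl3 was 5503, 7852 and 11703 CPM, and its level and the chemokine sum without the 72 are not given here. Without those 72, Pf4 was 1037, 1005 and 1708 CPM, Ccl12 1697, 1752 and 1376 CPM, Arg1 759, 490.1 and 481 CPM and Fth1 60926, 45328 and 79322 CPM, each still above every library of the cells with all 3 markers.

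**Figure D2:**
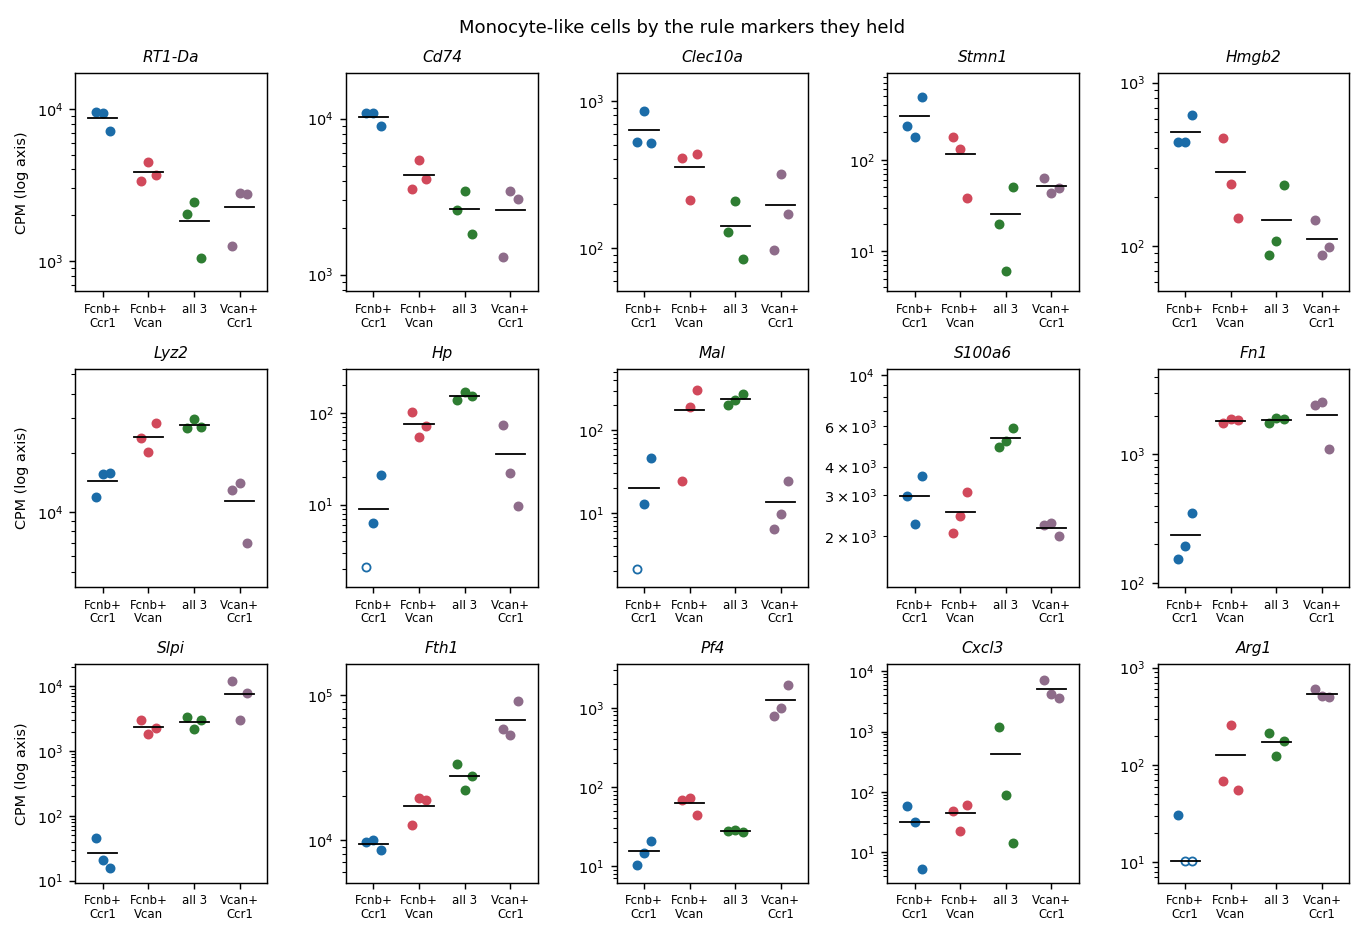
Expression level (CPM, logarithmic axes) of 15 genes in monocyte-like cells sorted by the rule markers detected in them, 1 point per infarction library with the mean as a black line; open circles mark 0 UMIs. RT1-Da, Cd74 and Stmn1 were highest in cells with Fcnb and Ccr1, Hp and S100a6 in cells with all 3 markers, and Pf4, Cxcl3 and Arg1 in cells with Vcan and Ccr1.

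The gate lies on a continuous range of Gpnmb and Fabp5. Of 4815 infarction cells that met every other part of the rule, 4250 (88.3%) exceeded the limit of 20 per 10000 UMIs, while the same 18 sham cells passed with and without this limit. Just inside the limit, at 15 to 20, lay 189 cells, and just outside, at 20 to 25, lay 155. Spp1 was 2735, 1869 and 1433 CPM just inside and 5661, 2139 and 3754 CPM just outside, Fcnb 739.5, 795 and 671 CPM and 478, 687 and 499 CPM, and Lyz2 18329, 18131 and 15593 CPM and 15187, 13775 and 13572 CPM.

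Over 5 steps of Gpnmb and Fabp5 (under 10, 10 to 20, 20 to 40, 40 to 80, and 80 or more per 10000 UMIs, holding 217, 348, 747, 1907 and 1596 cells) several genes moved step by step. The mean level of Spp1 was 681, 1660.2, 6300.5, 15276 and 30135 CPM. Apoe, a carrier of lipids, ran from 329 CPM at the lowest step to 16709 CPM at the highest. Fcnb went the other way, at 1632, 787, 622, 379 and 200.1 CPM. Lyz2 ran from 24074 to 7233 CPM, Cd74 from 4402 to 1167 CPM and Mal from 214 to 9.85 CPM. Vcan had no such order, at 916, 1208, 1274, 1149.5 and 904 CPM. Arg1 was lowest at the first step, 106 CPM, and lay between 286 and 449 CPM in the others. Cells with at least 2 neutrophil genes numbered 40, 43, 70, 125 and 75 over the same steps, a falling share, and median depth was 9057, 10448, 10439, 11722 and 12780 UMIs, and the part of either was not tested. These are descriptions, without a test, of cells the rule itself ordered.

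**Figure D3:**
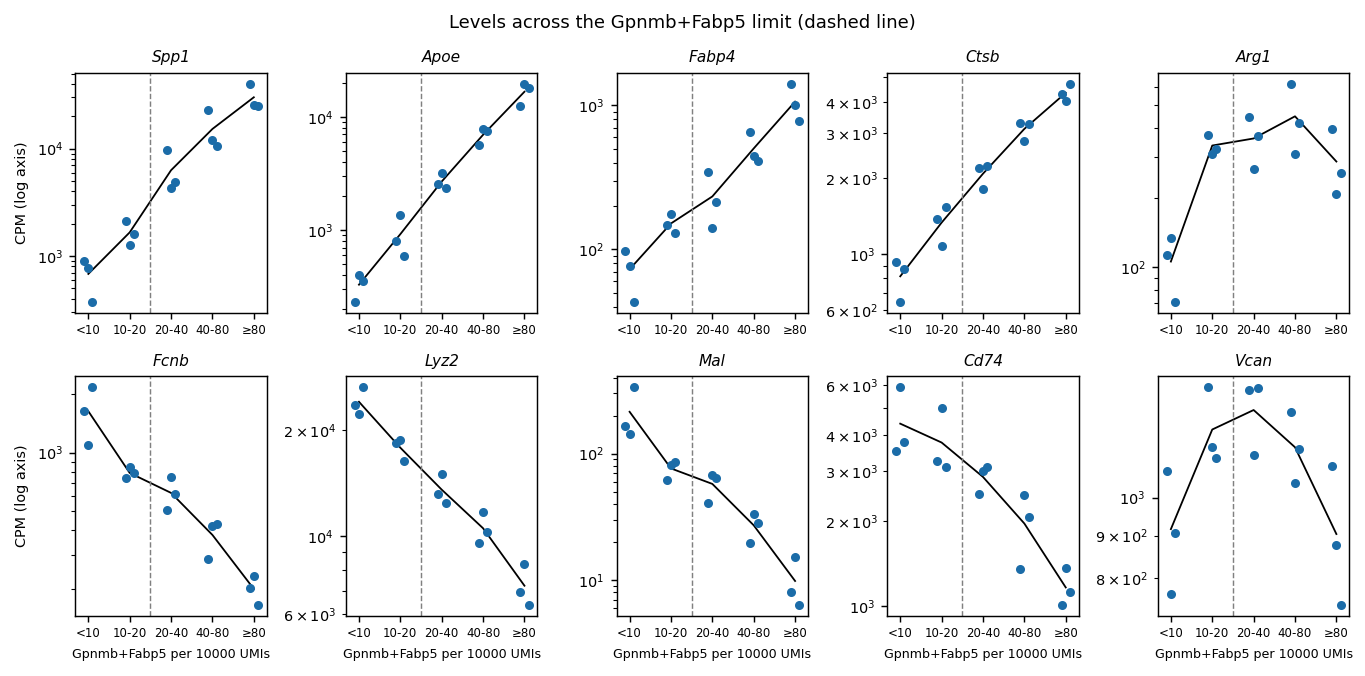
Expression level (CPM, logarithmic axes) against the summed Gpnmb and Fabp5 level in infarction cells that met every other part of the rule, 1 point per library and step with lines through the means; cells left of the dashed line are the monocyte-like cells. Spp1, Apoe, Fabp4 and Ctsb climbed with each step, Fcnb, Lyz2, Mal and Cd74 went down, and Vcan did neither.

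Against 9087 macrophages with Gpnmb and Fabp5 at or above the limit, the monocyte-like cells had more MHC class II and cell cycle RNA and less lipid-handling RNA. The macrophages met the other limits whatever their Fcnb, Vcan and Ccr1, and 46.8% of them held at least 2 of these. Summed counts of the 3 libraries were compared with edgeR's quasi-likelihood test with library as a block. A gene was called at a Benjamini-Hochberg adjusted p under 0.05 and a log2 fold change of at least 1. The fit had 2 residual degrees of freedom and a median prior of 24.9. In the fits below the prior was 11.7 against neutrophils and 12.7 against dendritic-like cells. The adjusted p-values therefore rest largely on spread pooled across genes. Of 11082 genes outside the gates, 551 (4.97%) were called higher and 357 (3.22%) lower, with a median log2 fold change of 0.02. Both populations were cut by expression, so genes that vary with Gpnmb and Fabp5 are part of this comparison.

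Of 7 class II genes tested, 6 were higher (median log2 fold change 1.62). RT1-Ba was 1170.4, 1439.7 and 903 CPM in monocyte-like cells and 325, 358 and 284 CPM in macrophages (log2 fold change ± SE 1.83 ± 0.09, adjusted p = 7.76e-15). Cd74 was 3308, 5332 and 3360.5 CPM against 1273, 1832 and 1392 CPM (1.38 ± 0.08, adjusted p = 8.78e-14). RT1-Da was higher by 1.62, and RT1-Bb, RT1-Db1 and Ciita, the activator of class II genes, were also called. RT1 genes are related sequences, and how reads shared between them were counted is not given. Of 16 cell cycle genes 9 were higher and 0 lower (median 1.22), among them Top2a and Mki67, and Hmgb2, a chromatin protein of dividing cells, was 193, 191 and 239 CPM against 99.4, 83.8 and 88.8 CPM (1.17 ± 0.10, adjusted p = 5.03e-10). Neither result held for the 227 cells with all 3 markers, in which Cd74, RT1-Ba, RT1-Bb, RT1-Da and Hmgb2 lost their calls. In these, 0 of 7 class II genes were called (median 0.82), and 0 of 16 cell cycle genes were higher and 2 lower (median -0.26). Without the 83 cells with neutrophil genes, 6 of 7 and 9 of 16 were higher. When cells of at least 2000 UMIs were thinned to 2000 UMIs and shallower cells left out, 6 of 6 class II genes and 2 of 15 cell cycle genes were higher. Hmgb2 lost its call.

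Of 16 lipid-handling genes 13 were lower and 0 higher (median log2 fold change -1.59). Spp1 was 1799, 1085 and 1137 CPM in monocyte-like cells and 27088, 17993 and 20017 CPM in macrophages (-4.05 ± 0.08, adjusted p = 8.27e-25). Apoc1 was 5.40, 10.1 and 2.68 CPM against 139, 213 and 204 CPM (-4.85 ± 0.19, adjusted p = 4.96e-14). Fabp4, a fatty acid carrier, was 136, 139.8 and 96.5 CPM against 827, 756 and 732 CPM (-2.65 ± 0.10, adjusted p = 5.91e-16). Apoe had a log2 fold change of -4.23 (adjusted p = 0.0253), a call that was lost without infarction library 2 and in cells with all 3 markers. The galectin gene Lgals3 and the lysosomal protease gene Ctsb had log2 fold changes of -1.59 and -1.72. The list was lower throughout the alternatives, with 11 to 14 of 16 genes called and none higher.

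The genes with the highest fold changes were of other kinds. Mal was 87.7, 105 and 182 CPM against 13.2, 18.6 and 11.6 CPM (3.05 ± 0.42, adjusted p = 0.0369). Ramp3 and Ramp1, partners of the calcitonin receptor family, were higher by 2.68 and 1.98. Cfp, the complement protein properdin, was called higher too, at 162, 183 and 152 CPM against a mean of 41.3 CPM. Fgl2, Limd2, Stmn1, Errfi1 and Glrx, a glutaredoxin, were higher by 2.10, 1.95, 1.92, 1.91 and 1.90, of which Stmn1 and Errfi1 lost the call in cells with all 3 markers. Lyz2 was 19631, 20041 and 20280 CPM against 8197, 8679.8 and 6614 CPM (1.35 ± 0.07, adjusted p = 1.59e-13) and was, with Hp, among the 3 of 17 classical monocyte genes that were higher, a call that Hp lost at a mitochondrial share of at most 10%. The other 14 missed the threshold, such as Fn1 at 1670 ± 178 CPM against 1499 ± 221 CPM (SD, n = 3 each). The inflammasome gene Nlrp3 and the early response gene Nr4a1 were higher by 1.28 and 1.34, and Nlrp3 lost its call at 2000 UMIs per cell and against macrophages with fewer than 2 markers. At the other end stood Cd200 (-3.33), Siglec1 (-3.08), Tmem37 (-2.54), Cd8a (-2.40), Aldh7a1 (-2.27) and Uap1l1 (-2.25). The proteases Mmp14 and Mmp12 had log2 fold changes of -1.62 and -1.30, and the chemokine gene Ccl7 had -1.43, of which Mmp12 and Ccl7 lost their calls with Fcnb required. Arg1 missed the threshold, at 309, 244 and 227 CPM against 459, 248 and 285 CPM, and so did Pf4, at 297, 353 and 559 CPM against 261, 299 and 586 CPM. The count of genes called lower was 945 with all 3 markers required and 643 with Fcnb required, and thinning to 2000 UMIs left 268 higher and 232 lower.

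**Figure D4:**
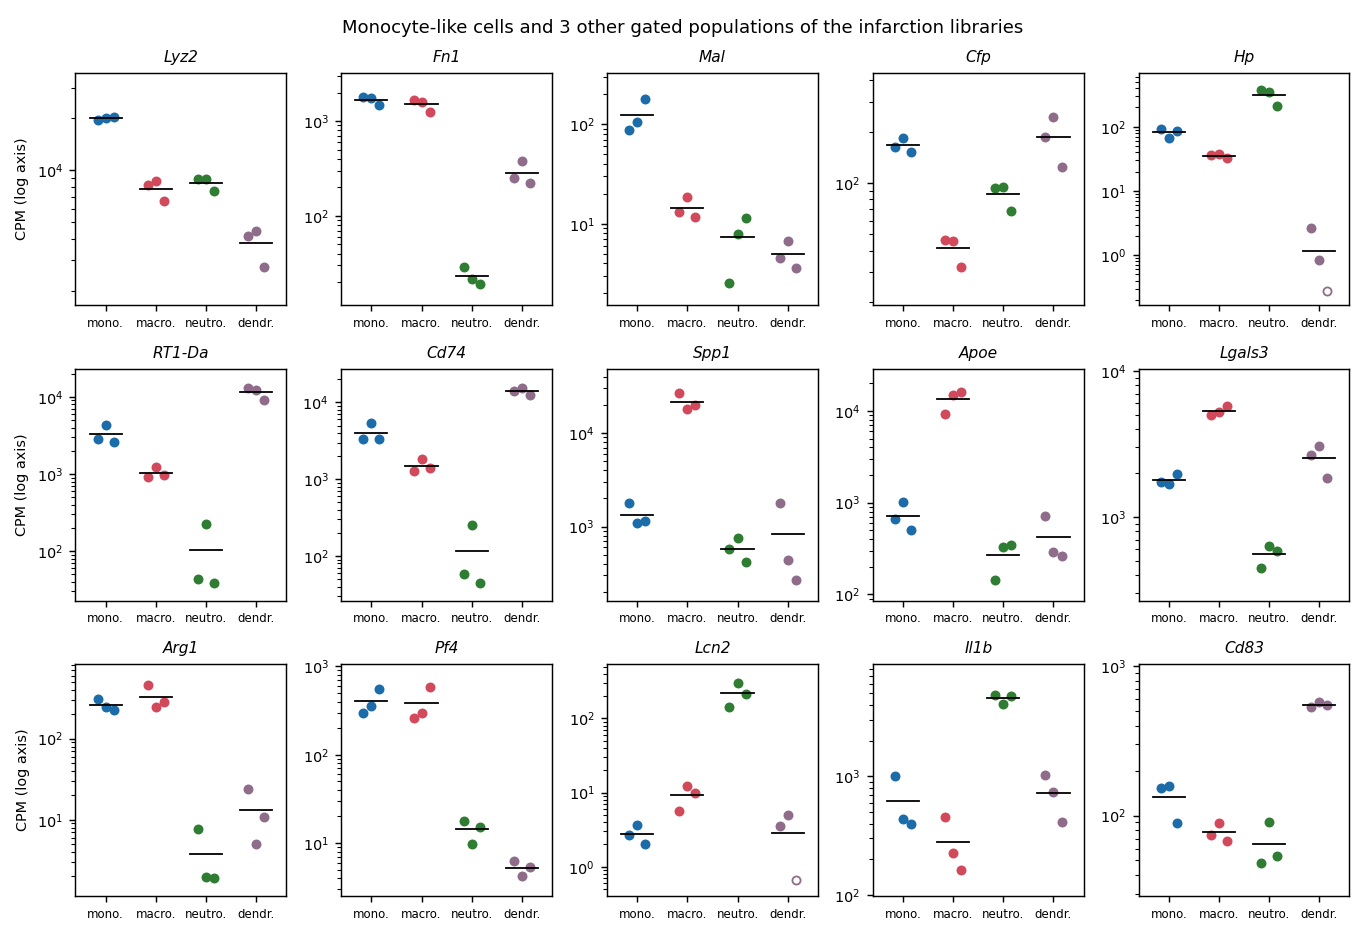
Expression level (CPM, logarithmic axes) of 15 genes in monocyte-like cells (mono.), Gpnmb Fabp5 macrophages (macro.), neutrophils (neutro.) and Ccl17 Ccl22 dendritic-like cells (dendr.) of the infarction libraries, 1 point per library with the mean as a black line; open circles mark 0 UMIs. Lyz2 and Mal were highest in monocyte-like cells, Spp1, Apoe and Lgals3 in macrophages, Lcn2, Hp and Il1b in neutrophils, and RT1-Da, Cd74 and Cd83 in dendritic-like cells.

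Against 882 neutrophils the differences were broad. These neutrophils held S100a8 and S100a9 at 200 per 10000 UMIs or more with at least 1 UMI of Cxcr2, Csf3r, Mmp8 or Il1r2, and their median depth of 1981.5 UMIs was lower than that of the monocyte-like cells, 9924 UMIs, and fits at equal depth are given below. Of 6505 genes tested with edgeR, 1631 (25.1%) were called higher and 1352 (20.8%) lower. All 5 class II genes tested were higher (median log2 fold change 4.94), with RT1-Da at 2886, 4358 and 2621 CPM in monocyte-like cells and 43.1, 226 and 38.2 CPM in neutrophils (4.94 ± 0.34, adjusted p = 4.68e-06). All 6 neutrophil granule and receptor genes tested were lower (median -6.38), among them Lcn2 at 2.70, 3.67 and 2.01 CPM against 142, 299 and 214 CPM (-6.56 ± 0.22, adjusted p = 1.36e-10). The elastase gene Elane, Camp, Retnlg and Mmp9 had log2 fold changes of -6.21, -5.01, -6.76 and -4.20. The gates cut S100a8 and S100a9 in opposite directions, and the neutrophils also had to hold a neutrophil receptor or protease gene. Genes that vary with these are therefore part of this comparison, and the lower granule genes are not independent support for the label.

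The genes with the highest fold changes were of mixed kinds. Tgfbi, a matrix protein induced by TGF-beta, was 539, 458 and 539 CPM in monocyte-like cells against 2.53, 3.93 and 3.82 CPM in neutrophils (6.85 ± 0.26, adjusted p = 2.88e-10). Fn1 was 1777, 1768 and 1464 CPM against 29.1, 21.6 and 19.1 CPM (5.74 ± 0.19, adjusted p = 1.36e-10) and Arg1 309, 244 and 227 CPM against 7.60, 1.97 and 1.91 CPM (5.52 ± 0.28, adjusted p = 1.80e-09). Fcna, which encodes the other rodent ficolin, was higher by 5.66, Ccl24 by 6.79, Mnda by 6.04, S100a4 by 5.46, Ahnak by 5.34 and Ly6e by 5.19. Of 17 classical monocyte genes 9 were higher and 3, Hp among them, lower (median 2.05), with the endotoxin co-receptor gene Cd14 higher by 4.43. Stfa2, Pglyrp1 and Ifit1bl had log2 fold changes of -7.32, -6.54 and -6.54. Of 13 cytokine and growth factor genes 5 were higher and 4 lower (median -0.05). Il1b was 1011, 439 and 397 CPM against 4874, 4061 and 4726 CPM (-3.40 ± 0.22, adjusted p = 5.82e-08), Nos2 had a log2 fold change of -4.29 and the interferon-induced gene Isg15 one of -5.06. Of 13 interferon-response genes 7 were lower and 0 higher (median -1.02). The monocyte-like cells were limited to fewer than 3 of the 5 interferon-induced genes of the rule, and the neutrophils were not. The part of these unequal gates in the interferon-response difference was not tested. Chemokines were divided, with 6 of 13 higher, among them Pf4 (4.31) and Ccl12 (4.87), whose calls were lost when all 3 markers or Fcnb was required, and 5 lower, among them Ccl6 (-3.61) and Cxcl2 (-2.93). Thinning to 2000 UMIs left out shallower cells and kept 235, 64 and 134 of the 334, 286 and 262 neutrophils in libraries 1, 2 and 3. In that fit 816 genes were called higher and 652 lower, and among the genes named here Isg15 lost its call.

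Against 232 dendritic-like cells, chosen by at least 2 UMIs of Ccl17 and Ccl22, the monocyte-like cells had less antigen-presentation RNA and more innate-recognition RNA. Of 6875 genes tested with edgeR, 513 (7.46%) were called higher and 418 (6.08%) lower. All 6 class II genes tested were lower (median log2 fold change -1.82), with Cd74 at 3308, 5332 and 3360.5 CPM in monocyte-like cells and 14270, 15254 and 12409 CPM in dendritic-like cells (-1.79 ± 0.11, adjusted p = 1.49e-07). All 7 genes tested of the dendritic list were lower (median -2.91), among them the costimulatory gene Cd86 (-1.86) and the maturation marker Cd83 (-2.02). Cd207, the langerin of Langerhans cells, was 0.450, 0 and 0 CPM against 106, 224 and 62.3 CPM (-9.02 ± 0.40, adjusted p = 1.15e-09). Lad1 had 0 UMIs in the monocyte-like cells against 38.6, 31.8 and 126 CPM in dendritic-like cells. Tbc1d4, Cavin1, Il4i1 and the interleukin 7 receptor gene Il7r had log2 fold changes of -6.72, -6.41, -5.36 and -4.75, and the elastase gene Mmp12 one of -2.95.

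Of 17 classical monocyte genes 13 were higher and 1, Itga4, lower in monocyte-like cells (median 1.26), and of 14 pattern recognition genes 10 were higher and 0 lower (median 1.73). Lyz2 was 19631, 20041 and 20280 CPM in monocyte-like cells against 4143, 4453 and 2761 CPM in dendritic-like cells (2.48 ± 0.13, adjusted p = 1.72e-07). Hp was 93.6, 67.4 and 86.5 CPM against 2.69, 0.837 and 0 CPM (5.85 ± 0.37, adjusted p = 4.23e-08). F13a1, a clotting factor subunit of monocytes, was higher by 5.53, thrombospondin 1 (Thbs1) by 5.10, the lectin Clec4d by 5.16, Chi3l1 by 5.02 and Mal by 4.47. Tlr2 and Trem1, which sense and amplify responses to microbial products, were higher by 3.18 and 2.50. Of 14 chemokine ligands 9 were higher and 2, Ccl5 and Cxcl16, lower (median 3.30). Pf4 was 297, 353 and 559 CPM against 6.28, 4.19 and 5.34 CPM (6.18 ± 0.22, adjusted p = 9.39e-11). Cxcl3 was higher by 6.07, a call that was lost when all 3 markers or Fcnb was required. The transcriptional regulator genes Id2 and Bhlhe40 had log2 fold changes of -1.15 and -1.22, calls that were lost in cells with all 3 markers, as was that of Itga4. Id2 also lost its call when Fcnb was required. Thinning to 2000 UMIs left 306 genes higher and 210 lower.

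Within the monocyte-like cells, Arg1 RNA went with chemokine RNA and against MHC class II RNA. After thinning each cell to 3000 UMIs, 497 cells were divided into those with at least 1 Arg1 UMI and those with 0, a range and not a type. In libraries 1, 2 and 3, Fcnb was held before thinning by 26 of 55, 23 of 48 and 20 of 34 Arg1-detected cells. Among Arg1-undetected cells it was held by 88 of 113, 117 of 152 and 79 of 95. The division thus overlaps with the marker sets above and is not independent of them. Of 2606 genes tested with edgeR, 55 (2.11%) were called higher and 39 (1.5%) lower in Arg1-detected cells. With 2 residual degrees of freedom, this fit leaned on the spread pooled across genes, with a median prior of 233 degrees of freedom, and in the division by class II below the median prior was infinite. Their p-values therefore say little about 3 libraries and are not printed. limma, with a prior of 25.3 and 42.4 degrees of freedom, called 39 higher and 31 lower here and 43 and 88 in the division by class II. Of 13 chemokine ligands 6 were higher and 0 lower (median log2 fold change 1.13). Ccl12 was 945, 2403 and 1245 CPM in Arg1-detected and 32.4, 107 and 3.51 CPM in Arg1-undetected cells (log2 fold change ± SE 5.01 ± 0.37). Pf4 was 539, 909.7 and 2000 CPM against 50.1, 78.9 and 87.7 CPM (3.92 ± 0.19) and Cxcl3 6485, 3743 and 1931 CPM against 1221, 675 and 358 CPM (2.49 ± 0.09). Pdpn, a surface glycoprotein, the haem oxygenase gene Hmox1, F13a1 and the hypoxia gene Bnip3 were higher by 3.56, 1.44, 2.53 and 1.99. The scavenger receptor gene Msr1, the lysosomal protease gene Ctsl and the glycolysis gene Pfkl were higher by 1.40, 1.27 and 1.54.

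Of 5 class II genes 4 were lower and 0 higher (median -2.04). RT1-Ba was 333, 326 and 118 CPM in Arg1-detected and 1392, 1489 and 811 CPM in Arg1-undetected cells (-2.19 ± 0.15), with no overlap. Ramp3, Plekho1, Clec10a and Hmgb2 had log2 fold changes of -3.18, -2.66, -1.59 and -1.42. The counts rested on infarction library 1, without which 20 genes were higher and 8 lower, and without library 2 there were 47 and 19. In these 2 fits 7 of 12 and 6 of 12 chemokine genes were higher and 5 of 5 class II genes lower. Within the cells that held Fcnb, 20 genes were higher and 9 lower, with 2 of 8 chemokine genes higher and 2 of 5 class II genes lower. Without library as a block, 24 genes were higher and 13 lower, with 1 of 12 chemokine genes higher and 1 of 5 class II genes lower, and Ccl12, Pf4 and Cxcl3 lost their calls. Ccl12 and Cxcl3 also lost them at 5000 UMIs per cell. Pfkl and Ramp3 lost theirs with DESeq2 and without library 1, Hmgb2 with DESeq2 and without library 2, Ramp3 without library 2, F13a1 and Plekho1 without library 1, and Bnip3, Msr1 and Pfkl without library 1 and within cells that held Fcnb.

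Dividing the same cells at each library's median of 5 class II genes (RT1-Ba, RT1-Bb, RT1-Da, RT1-Db1 and Cd74) showed the same relation from the other side, and it is not independent of the Arg1 result. Of 2892 genes tested with edgeR, 48 (1.66%) were called higher and 102 (3.53%) lower in cells with more class II RNA. Arg1 was 129, 60.0 and 52.9 CPM in cells with more and 537, 397 and 394 CPM in cells with less class II RNA (-2.52 ± 0.21). Slpi was 1968, 713 and 1449.7 CPM against 11733, 4200 and 7732 CPM (-2.58 ± 0.11) and Fth1 22466, 14750 and 19418 CPM against 55043, 48527 and 68429 CPM (-1.68 ± 0.09). Of 13 chemokine ligands 9 were lower and 0 higher (median log2 fold change -1.52), with Ccl3 at -2.14 and Ccl2 at -1.43. Of 6 arginine, prostaglandin and checkpoint genes 4 were lower, Arg1, Cd274, Nos2 and Ptgs2 (median -1.69). Car4, Mcemp1 and the RNase gene Rnase2 had log2 fold changes of -4.92, -2.07 and -2.77.

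The genes that were higher with class II were few. Clec10a was 241, 540 and 344 CPM in cells with more and 74.5, 60.0 and 45.5 CPM in cells with less class II RNA (2.55 ± 0.23). Gem, a small GTPase, was 100.4, 153 and 74.1 CPM against 3.92, 10.0 and 5.05 CPM (3.95 ± 0.47). Plekho1, Ramp3, Mfge8, a bridging protein for dying cells, and Acp5 were higher by 3.68, 3.61, 3.25 and 2.33. Tmem176a, Tmem176b and Ifitm1 were higher by 2.16, 1.72 and 1.90, the transcription factor gene Irf5 by 1.22 and Cd83 by 1.29. Without infarction library 2, 24 genes were called higher and 47 lower. Without library as a block 32 were higher and 42 lower, with 0 of 12 chemokine genes lower, and within the cells that held Fcnb 2 of 8 were lower. DESeq2 called 7 higher and 31 lower in this division and 23 and 11 in that by Arg1. With DESeq2, Gem, Plekho1, Ramp3, Mfge8, Acp5, Tmem176a, Tmem176b, Irf5 and Cd83 all lost the call of higher, and Car4, Nos2 and Rnase2 that of lower. At 5000 UMIs per cell Ccl2, Ccl3 and Irf5 lost their calls, and 3 of 13 chemokine genes were lower and 1 higher. Within cells that held Fcnb, Ccl2, Ccl3, Ifitm1 and Irf5 lost theirs, without library as a block Ccl2, Ccl3 and Slpi did, and Irf5 also did without library 1 and without the cells with neutrophil genes.

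**Figure D5:**
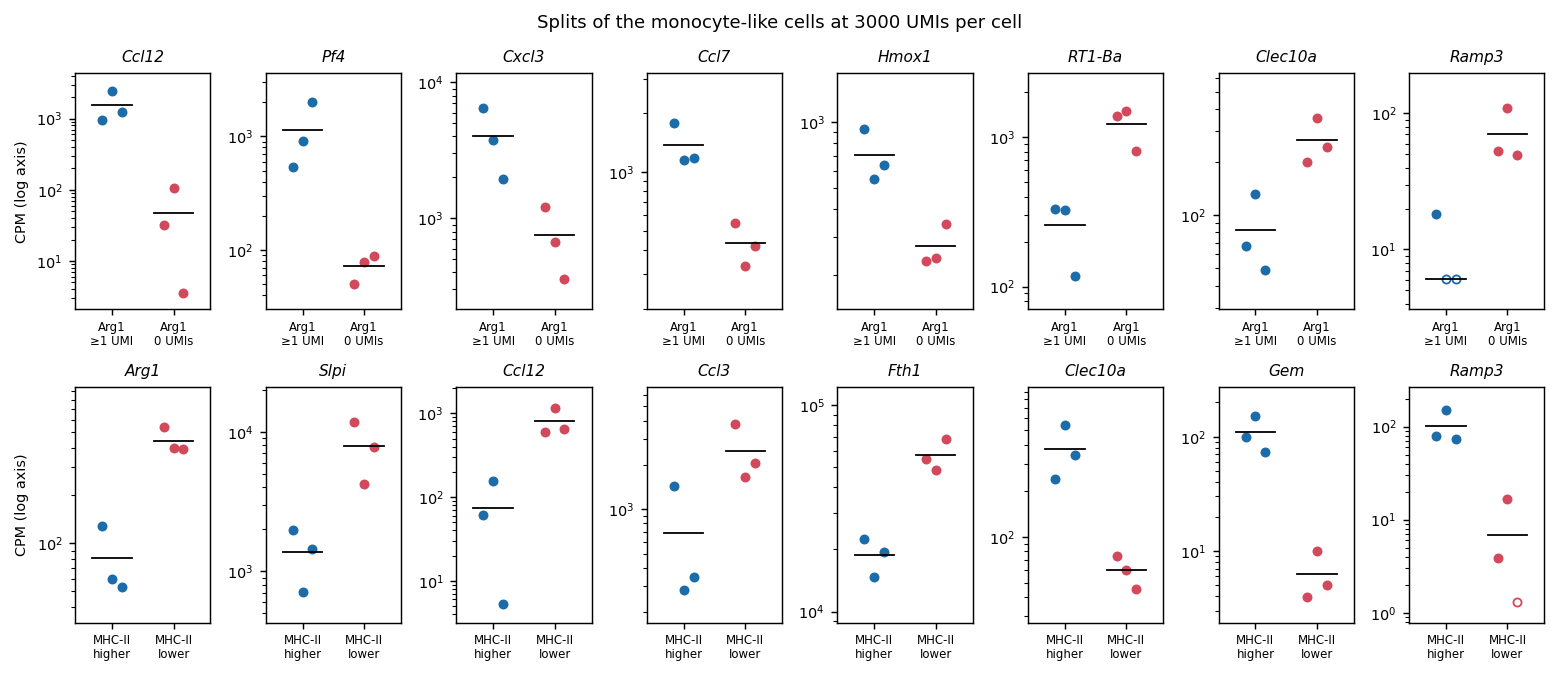
Expression level (CPM at 3000 UMIs per cell, logarithmic axes) in monocyte-like cells with and without an Arg1 UMI (top row) and with more and less MHC class II RNA than their library's median (bottom row), 1 point per infarction library with the mean as a black line; open circles mark 0 UMIs. Ccl12, Pf4 and Cxcl3 were higher in Arg1-detected cells, where RT1-Ba was lower, and Clec10a, Gem and Ramp3 were higher in cells with more class II RNA.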

How the data were processed

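For each of the 6 libraries the authors deposited a matrix of unnormalized UMI counts. Per the submitters' processing notes, CASAVA 1.8, Cell Ranger 3.1.0 and Seurat 2.3.4 were used, and the genome build is not given in the sources used here. Of 44011 barcodes 38685 were kept, and CPM values were computed from the deposited counts as UMIs per 1000000 UMIs of a population in a library.

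The members and lists were chosen with earlier results of these data known. Counts were summed per library and population and tested with edgeR 4.0.16 in R 4.3.3 (quasi-likelihood, robust prior, TMM factors, filterByExpr), with library as a block because both populations come from the same libraries, and with Benjamini-Hochberg adjustment over all genes tested. Genes of the gates were left out of counts. The test of infarction against sham cells was not run because each sham library held fewer than 20 gated cells. Named genes were called, reached a mean of 50 CPM in the higher population and did not overlap between populations. Of these, 10 were taken from each end of the fold changes, with up to 4 per list by p. Other genes named, among them those of the sham cells, the marker sets and the Gpnmb and Fabp5 range, were chosen after their values were seen.

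Of the 565 cells, 16 had a Scrublet doublet score above 0.25 and were kept in the main results. No barcode was shared between the gated cells of different infarction libraries. DESeq2 1.42.0, limma 3.58.1, other factors, filters, depths and left-out libraries were tried as alternatives.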

Additional observations from a re-analysis of the deposited data

How the results depend on the processing

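No named gene changed the sign of its fold change under an alternative, but the cell cycle list against macrophages did so with all 3 markers required, where its median was -0.26 in place of 1.22 and 0 genes were higher and 2 lower. Among the genes called against macrophages, requiring all 3 markers gave 945 lower in place of 357, requiring Fcnb gave 643 lower, and thinning to 2000 UMIs gave 268 higher and 232 lower. Thinning also gave 816 and 652 against neutrophils and 306 and 210 against dendritic-like cells, with fewer cells and fewer genes tested. In the division by Arg1, DESeq2 called 23 higher and 11 lower, no replicate block 24 and 13, and Fcnb-holding cells 20 and 9, and leaving out 1 library gave 20 to 55 higher and 8 to 39 lower. In the division by class II, DESeq2 called 7 higher and 31 lower, no replicate block 32 and 42, and thinning to 5000 UMIs 73 higher, and leaving out 1 library gave 24 to 52 higher and 47 to 91 lower. Pairing by library changed no count by over 1.5 times in the other comparisons. The difference in share between infarction and sham libraries, 2.82 percentage points, was 1.16 with all 3 markers, 1.76 with Fcnb and 3.37 with cells of at least 2000 UMIs, and 2.57 to 3.05 when 1 library was left out. The cause of these shifts was not tested.

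The alternatives without the neutrophil-gene cells, with Fcnb required, with macrophages of fewer than 2 markers, without the robust prior and with limma were chosen after seeing the data, the last of these because the robust prior made p-values in both divisions far smaller than 3 libraries can bear. Infarction against sham cells has no alternatives because its fit was not run. Precision is limited by the 4, 11 and 3 gated sham cells, by the 14 to 36 cells per library with Fcnb and Ccr1 and by the shallow neutrophils.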
